A study of Mus musculus with 8 samples.

Results

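The matrix metalloproteinases (Mmp genes), the ADAMTS proteases (Adamts genes) and the tissue inhibitors of metalloproteinases (Timp genes) were followed in RNA sequencing data from 4 mouse fibrosarcoma cell lines. Members were the protein-coding genes of the deposited count table whose symbol is Mmp, Adamts or Timp followed by a number, with one trailing letter allowed for Mmp. The rule used names only and no measured value. It found 34 of the 18768 genes in the table, of which 16 were Mmp genes, 16 were Adamts genes and 2 were Timp genes. Timp1, Timp4, Mmp7, Mmp8, Mmp12, Mmp20 and Mmp27 were not analysed here.

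Each line was grown from a soft tissue sarcoma that arose in a mouse after a subcutaneous injection of the carcinogen methylcholanthrene (MCA). The tumor was digested with collagenase, hyaluronidase and DNase I, and its cells were passaged in RPMI medium with serum until a stable line remained. MC010 and MC011 came from mice labelled IRF8 KO, and MC654 and MC659 from mice labelled WT (C57BL/6), and each line gave 2 libraries. All 4 lines shared the carcinogen and the culture, and the labels name no further treatment. A line stands for 1 tumor, so that each label is represented by 2 tumors and the libraries of a line are not separate tumors. The p-values below therefore measure the spread between these libraries, which within a line may be technical.

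MMPs are zinc-dependent endopeptidases that are secreted or held at the cell membrane and that cleave the proteins of the extracellular matrix, among them collagens, gelatin, laminin and fibronectin. Most are made as inactive proenzymes and are activated by the removal of a propeptide. The ADAMTS proteases are secreted enzymes related to them, which carry thrombospondin repeats and include the aggrecanases, the procollagen N-proteinases and enzymes that cleave cartilage matrix proteins. The TIMPs bind the active site of these enzymes, and TIMP3 is the member that stays bound to the matrix and inhibits several ADAMTS proteases. In fibroblasts and in the sarcomas that resemble them, these genes are read as part of the matrix-remodelling program, and several secreted MMP genes are classic targets of the AP-1 transcription factors.

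The 8 libraries held 74063616 to 116206078 counts, and 3 counts, taken as the floor, corresponded to between 0.0262 and 0.0408 CPM (counts scaled to library size). Across genes, log2 CPM correlated between the 2 libraries of a line with a Pearson's r of 0.994 in each of the 4 lines, where genes are not independent replicates. Irf8, the targeted gene, showed 10 to 442 counts per library under the label IRF8 KO and 0 to 2 under WT, so its RNA went against the labels and directions are given by label throughout. The study that made the lines reports PCR genotyping of their DNA, with MC654 and MC659 as WT and MC010 and MC011 as IRF8 KO. The mesenchymal marker Vim was at 4532 to 7384 CPM, and the 6 mesenchymal markers examined summed to 7443 to 9236 CPM in the libraries labelled IRF8 KO and 6602 to 8029 CPM in those labelled WT. Of 6 markers of macrophages and other hematopoietic cells, 3 were in the table, with a sum of 5.53 to 7.29 CPM and 9.61 to 11.4 CPM in that order, most of it Cd68, and Ptprc at no more than 0.177 CPM. Of 5 neutrophil markers only S100a8 was in the table, at 0.0136 to 0.392 CPM and at 0 in all 4 libraries labelled WT. The 4 endothelial markers summed to 0.468 to 0.912 CPM and 0.465 to 0.683 CPM. Tek among them was called higher under the label IRF8 KO (log2 fold change 2.37 ± 0.48, adjusted p = 0.00575). It was at 0.0227 to 0.0667 CPM in the libraries labelled WT, under the cutoff of 0.115 CPM of the low-count filter used below. Tek thus passed that filter only through libraries labelled IRF8 KO and had to differ. The 4 epithelial markers summed to 33.3 to 565 CPM and 114 to 129 CPM, where the high values were Krt8 and Krt18 in MC010, with Cdh1 at no more than 0.394 CPM in any library. Epcam was called higher under the label IRF8 KO, at 0.313 to 1.19 CPM against 0.118 to 0.18 CPM (log2 fold change 2.20 ± 0.48, adjusted p = 0.00858), and so was the mesenchymal marker Thy1 (log2 fold change 1.93 ± 0.63, adjusted p = 0.0417). The part of these cell type markers in the results below was not tested.

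Counts were compared with edgeR's quasi-likelihood test over the 15153 genes that passed its filter on low counts, with Benjamini-Hochberg adjustment over all of them. Fold changes are given on the log2 scale ± SE. A gene was called where the adjusted p was under 0.05 and the log2 fold change was above 0.59 in size. Of the 34 members, 28 were tested, made up of 14 Mmp, 12 Adamts and 2 Timp genes. Mmp3 and Mmp1b passed the filter only through libraries labelled IRF8 KO and so had to differ. The filter asks for 4 libraries at its cutoff. For Mmp10 and Adamts3, 2 libraries labelled WT reached it, and for Mmp13 3, beside all 4 labelled IRF8 KO for each. Mmp10, Mmp13 and Adamts3 thus needed the libraries labelled IRF8 KO to pass. The 6 members not tested (Mmp24, Mmp25, Adamts15, Adamts16, Adamts17 and Adamts20) had at most 29 counts in any library.

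Between the labels, 13 of the 28 tested members were higher and 2 lower under the label IRF8 KO, or 53.6% called. Without Mmp3 and Mmp1b, 11 of 26 were higher and 2 lower, or 50%. Those 26 still hold Mmp10, Mmp13 and Adamts3, which needed the libraries labelled IRF8 KO to pass the filter. Over all genes tested 22.5% were called, 13.7% higher and 8.72% lower. The higher members were Mmp1b, Mmp3, Mmp9, Mmp10, Mmp13, Mmp17, Mmp19, Mmp28, Adamts2, Adamts7, Adamts9, Timp2 and Timp3, and the lower members were Mmp2 and Mmp23. The median log2 fold change was 0.94 over the tested members and 0.02 over all genes tested, and the median size without sign was 1.56 against 0.36. Both medians over members include Mmp3 and Mmp1b, which had to differ. They also include Mmp10, Mmp13 and Adamts3. All 4 libraries labelled IRF8 KO lay above all 4 labelled WT for 13 tested members (46.4%) and below them for 6 (21.4%). Mmp3, Mmp1b, Mmp10 and Mmp13 are among the 13. Over all genes tested, the shares were 22.1% and 20.5%. The labels did not overlap for 67.9% of tested members and 42.5% of all genes tested. With lines as random blocks (limma-voom), 7 members were called higher and 4 lower, beside 12.4% of all genes tested. Mmp1b, Mmp10, Mmp13, Mmp17, Mmp19 and Adamts2 were not called in that fit (adjusted p from 0.0525 to 0.226), and Adamts6 and Adamts12 were called lower in it. Without the line MC659, 9 of 29 tested members were called, beside 11.6% of all genes tested. When the libraries of each line were added together, which leaves 2 lines against 2, 0 members and 0 of all genes were called by edgeR, with 12 members and 3361 of all genes at an unadjusted p under 0.05. In such bulk libraries, fewer cells with a transcript and less of it per cell cannot be told apart. An exact test over 2 lines against 2 cannot give a p below 0.333.

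**Figure D1:**
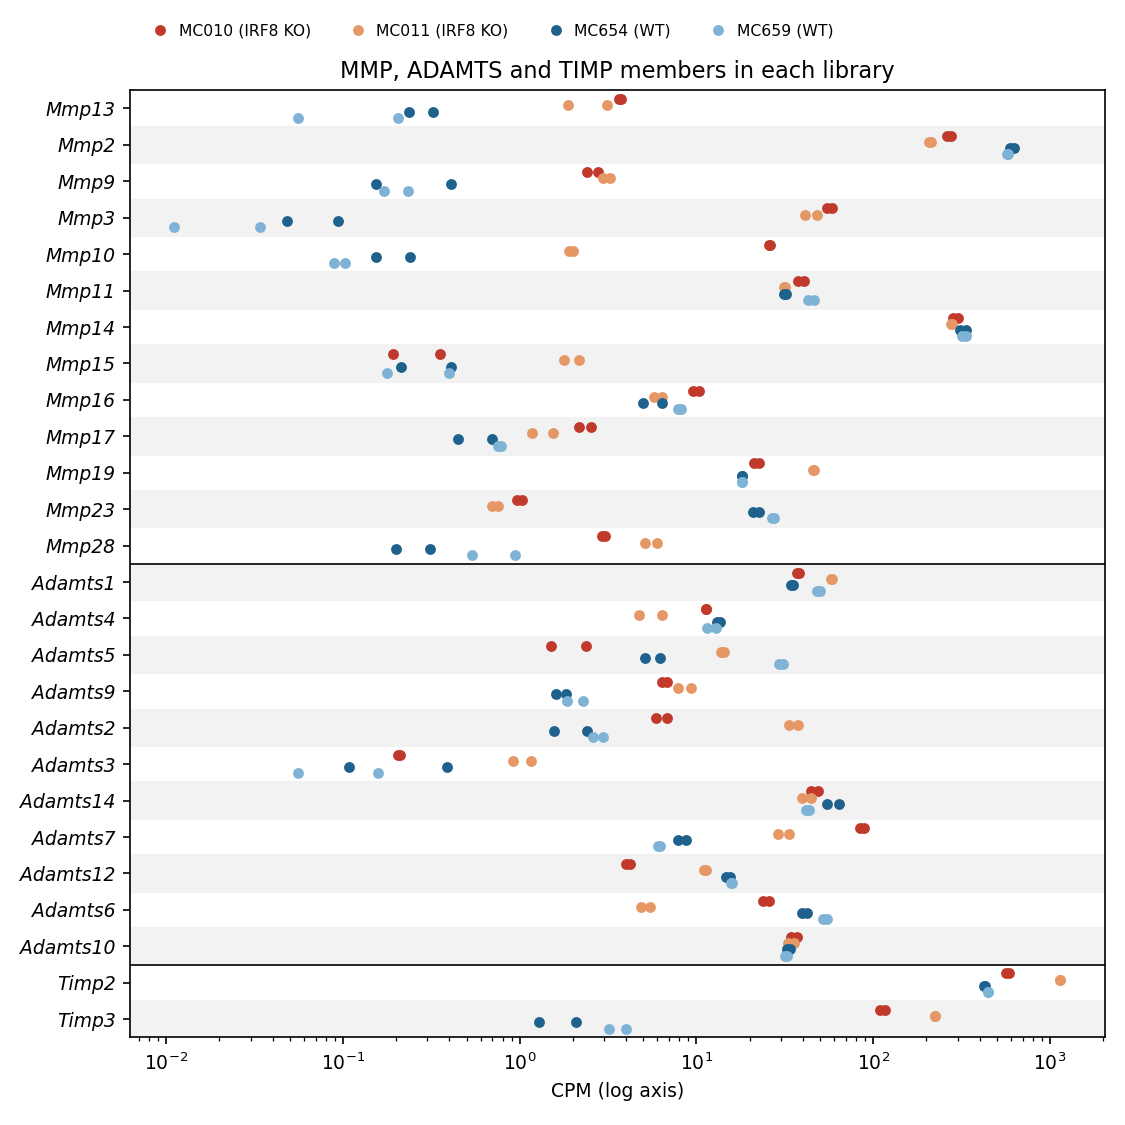
CPM (log axis) of the 26 members with a mean of at least 1 CPM in some line, one point per library and one colour per line, with the horizontal lines separating the MMP, ADAMTS and TIMP genes. The 2 libraries of a line lie close together, Mmp3 and Timp3 are high in both lines labelled IRF8 KO and low in both WT lines, and Mmp23 and Mmp2 lie the other way.

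The stromelysins Mmp3 and Mmp10 and the collagenases Mmp13 and Mmp1b, all genes of one cluster on chromosome 9, rose in both lines labelled IRF8 KO. Stromelysins cleave proteoglycans and basement membrane proteins and activate other proMMPs, and the collagenases cut fibrillar collagen within its triple helix. Mmp3 (ENSMUSG00000043613, chromosome 9, 7445822 to 7455975 in mm10) was at 55.1 and 58.5 CPM for MC010, 41.3 and 48.1 for MC011, 0.0479 and 0.0941 for MC654 and 0.034 and 0.0111 for MC659. It was thus readily measured in MC010 and MC011 and came to 16 counts in the 4 libraries labelled WT together. Its log2 fold change was 10.06 ± 0.38 (SE, adjusted p = 3.06e-06), and the pooled CPM differed 1096-fold (exact 95% interval 675 to 1918, counting error only, from 18378 counts against 16).

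Mmp10 (ENSMUSG00000047562, chromosome 9, 7502352 to 7510240) was at 25.9 and 25.8 CPM for MC010, 1.99 and 1.91 for MC011, 0.24 and 0.153 for MC654 and 0.102 and 0.0889 for MC659. It followed Mmp3 between the labels, with a log2 fold change of 6.57 ± 1.14 (SE, adjusted p = 0.00298), but not between the lines labelled IRF8 KO, since MC010 exceeded MC011 by 3.73 ± 0.12 (SE, adjusted p = 6.77e-13) on the log2 scale. Mmp13, the main interstitial collagenase of mice (ENSMUSG00000050578, chromosome 9, 7272514 to 7283331), was at 3.64 and 3.76 CPM for MC010, 1.88 and 3.11 for MC011, 0.324 and 0.235 for MC654 and 0.204 and 0.0556 for MC659. Its log2 fold change was 3.91 ± 0.51 (SE, adjusted p = 0.000762), and the adjusted p was 0.0525 with lines as random blocks. The difference between MC010 and MC011 did not pass (0.57, adjusted p = 0.0786). Mmp1b, a mouse relative of human interstitial collagenase (ENSMUSG00000041620, chromosome 9, 7368239 to 7388047), had 61 and 57 counts in MC010, 22 and 9 in MC011, 5 and 3 in MC654 and 0 and 0 in MC659. Against the floor of 3 counts per library in MC659, it was at least 19.4-fold higher for MC010 and at least 5.08-fold higher for MC011. The adjusted p between the labels was 0.0138. Mmp1b overlaps an exon of Mmp12 on the opposite strand and has a close copy, Mmp1a, beside it, so its few reads could be shared. For Mmp10 and Mmp1b the adjusted p rose above 0.05 with a line left out (up to 0.0698 and 0.0937). Mmp10 and Mmp13 needed the libraries labelled IRF8 KO to pass the low-count filter, so their adjusted p-values are not free of that selection.

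The promoters of these 4 genes are shown because the genes lie in one cluster and were each called higher under the label IRF8 KO. RefSeq windows of GRCm38.p6, from 250 bases before to 50 after a gene's start, were matched by symbol for 21 of the 34 members and searched on both strands for the AP-1 motif TGANTCA, the TATA box TATAAA and an interferon regulatory factor (IRF) element, GAAA repeated after a gap of 2 bases. The 100 bases before each RefSeq start are printed, 5′ to 3′ in the direction of the gene, with AP-1 and TATA matches in capitals. The window of Timp3, the other member with a large rise, is given beside them. RefSeq starts equal the gene starts of the deposited table for Mmp3 and Mmp13. For Mmp1b and Timp3 the stretch reaches into the gene of the table, which starts at 7388047 and 86300372. For Mmp10 it ends before the gene's start at 7502352.
Mmp3 (chr9:7445722-7445821, plus strand): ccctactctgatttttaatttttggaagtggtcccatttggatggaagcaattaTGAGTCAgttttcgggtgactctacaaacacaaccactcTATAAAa
Mmp10 (chr9:7502242-7502341, plus strand): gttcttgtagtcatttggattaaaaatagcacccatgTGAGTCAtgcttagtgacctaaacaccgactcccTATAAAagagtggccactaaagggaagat
Mmp13 (chr9:7272414-7272513, plus strand): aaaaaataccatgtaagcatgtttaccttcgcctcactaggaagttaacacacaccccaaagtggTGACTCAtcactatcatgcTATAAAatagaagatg
Mmp1b (chr9:7388027-7388126, minus strand): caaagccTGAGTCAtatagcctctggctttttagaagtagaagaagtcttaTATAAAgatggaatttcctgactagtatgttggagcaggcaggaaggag
Timp3 (chr10:86300312-86300411, plus strand): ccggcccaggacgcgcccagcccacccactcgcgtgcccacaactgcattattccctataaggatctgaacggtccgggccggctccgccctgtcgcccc
The AP-1 letters started at -46 in Mmp3, -63 in Mmp10, -35 in Mmp13 and -93 in Mmp1b, counted from the RefSeq start. Each was followed by a TATA match. These 4 were the only ones of the 21 matched members with the AP-1 letters, or 19.0% against 7.81% of all 32851 promoter windows. TATAAA was present in them and in Adamts1, or 23.8% against 13.6%. The IRF letters were in the window of Mmp13 alone among the 21, or 4.76% against 3.44% of all windows. These matches describe the sequence of the windows only, and the matched windows were not a sample of the 34 members chosen at random. The member shares count genes with a match in any window, and the shares beside them count windows, so the units differ. The 4 genes with the AP-1 letters are also neighbours in the same cluster.

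The MMP cluster runs from 7272514 to 7699585 of chromosome 9 and holds 10 Mmp genes in the GENCODE annotation, of which 5 were in the table. Mmp1a, annotated as a polymorphic pseudogene and therefore outside the rule, had 42 and 25 counts in MC010, 3 and 3 in MC011 and 0 in all 4 libraries labelled WT, and was not tested. Thus all 5 had more counts in the lines labelled IRF8 KO. Of the 11 tested genes within 1 Mb on either side, 2 were called higher (Pdgfd and Birc3) and 1 lower (Cfap300), with a median log2 fold change of 0.15 between -1.01 and 5.56. Over all genes tested, 13.7% were called higher and 8.72% lower.

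**Figure D2:**
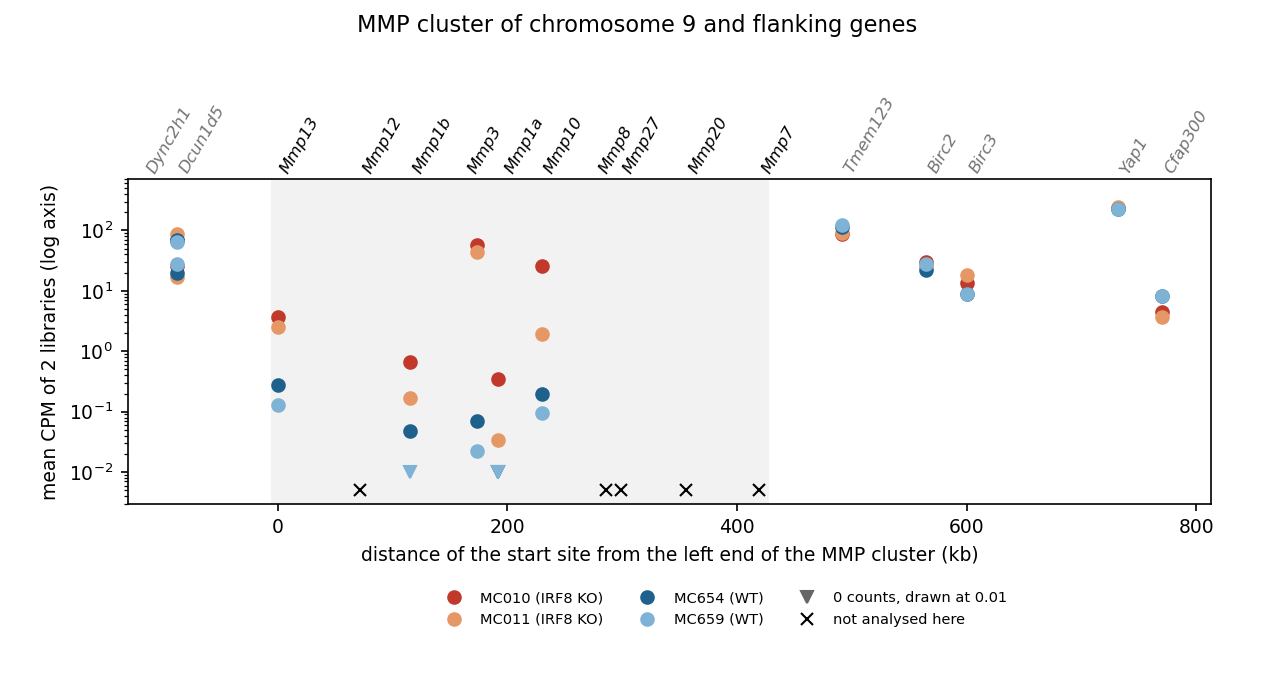
Mean CPM of the 2 libraries of each line (log axis) for the genes of the MMP cluster of chromosome 9 (grey) and its neighbours, against the distance of the start site from the left end of the cluster in kb; triangles mark 0 counts and crosses genes not analysed here. The 5 cluster genes with values are higher in both lines labelled IRF8 KO, and the neighbours Yap1, Birc2 and Tmem123 lie close together in the 4 lines. Among the other neighbours, Birc3 was called higher under the label IRF8 KO and Cfap300 lower. Pdgfd, also called higher, lies outside the drawn range.

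The gelatinases Mmp2 and Mmp9, which degrade denatured collagen and basement membrane collagen, moved in opposite directions. Mmp2 (ENSMUSG00000031740, chromosome 8, 92827291 to 92853420) was at 274 and 261 CPM for MC010, 212 and 206 for MC011, 625 and 597 for MC654 and 577 and 574 for MC659. It was abundant in every line and lower in both lines labelled IRF8 KO, with a log2 fold change of -1.31 ± 0.10 (SE, adjusted p = 7.22e-05). Mmp9 (ENSMUSG00000017737, chromosome 2, 164940780 to 164955850) was at 2.4 and 2.78 CPM for MC010, 2.98 and 3.23 for MC011, 0.407 and 0.153 for MC654 and 0.17 and 0.233 for MC659, a log2 fold change of 3.55 ± 0.35 (SE, adjusted p = 0.000186). Per kb of exon, Mmp9 still made up only 0.181% and 0.168% of the summed level of the 34 members in MC010 and MC011, and Mmp2 19.7% and 11.9%. S100a8, the only neutrophil marker with values, had more counts in the same libraries, and its part in the Mmp9 difference was not tested. Of the hematopoietic markers, Csf1r was called lower there, Cd68 passed the adjusted p but not the fold threshold, also lower, and Ptprc was at 0.157 and 0.177 CPM for MC010, 0 for MC011 and 0.0118 to 0.024 CPM in the libraries labelled WT.

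Mmp11, called stromelysin-3 although its substrates differ from those of the other stromelysins, was at 40.6 and 37.6 CPM for MC010, 31.8 and 31.5 for MC011, 32.3 and 31.2 for MC654 and 42.8 and 46 for MC659. The lines of both labels overlapped, and its log2 fold change was -0.11 ± 0.15 (SE, adjusted p = 0.621).

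Of the 4 tested membrane-type MMPs, Mmp17 was called between the labels, and Mmp14, Mmp15 and Mmp16 were not. Mmp14, the membrane-type enzyme that activates proMMP2 at the cell surface (ENSMUSG00000000957, chromosome 14, 54431612 to 54445364), was at 300.3 and 281 CPM for MC010, 279.5 and 274 for MC011, 335 and 310.4 for MC654 and 319 and 334 for MC659. All 4 libraries labelled IRF8 KO lay below the 4 labelled WT, but the log2 fold change of -0.19 ± 0.05 (SE, adjusted p = 0.0201) was under the fold threshold. Mmp17, which is anchored by a lipid, was at 2.52 and 2.16 CPM for MC010, 1.55 and 1.18 for MC011, 0.695 and 0.447 for MC654 and 0.782 and 0.756 for MC659, a log2 fold change of 1.46 ± 0.31 (SE, adjusted p = 0.00698). With a line left out, its adjusted p rose to as much as 0.0821.

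Mmp15 was at 0.192 and 0.354 CPM for MC010, 2.17 and 1.78 for MC011, 0.407 and 0.212 for MC654 and 0.397 and 0.178 for MC659. Only MC011 stood out, with a log2 difference of MC010 minus MC011 of -2.90 (adjusted p = 2.19e-05), and the comparison of labels did not pass, with a log2 fold change of 1.91 ± 0.78 (SE, adjusted p = 0.0884), although DESeq2 called it (adjusted p = 0.0339). Mmp16 was at 9.5 and 10.3 CPM for MC010, 5.74 and 6.41 for MC011, 5.0 and 6.35 for MC654 and 7.82 and 8.2 for MC659, and the labels overlapped (log2 fold change 0.22 ± 0.25, adjusted p = 0.514).

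Among the remaining MMPs, Mmp23, a small membrane-anchored family member with an atypical structure, showed the largest fall among the tested members. Mmp23 (ENSMUSG00000029061, chromosome 4, 155650655 to 155653384) was at 1.03 and 0.966 CPM for MC010, 0.757 and 0.696 for MC011, 22.6 and 20.8 for MC654 and 26.7 and 27.4 for MC659. The means were 0.863 ± 0.161 CPM under the label IRF8 KO and 24.4 ± 3.19 CPM under the label WT (SD, n = 4 libraries from 2 lines each), a log2 fold change of -4.82 ± 0.19 (SE, adjusted p = 3.06e-06). Mmp28, also called epilysin (ENSMUSG00000020682, chromosome 11, 83440768 to 83463071), was at 2.91 and 3.05 CPM for MC010, 5.96 and 5.11 for MC011, 0.312 and 0.20 for MC654 and 0.94 and 0.534 for MC659. It was low in all lines but higher in the lines labelled IRF8 KO, with a log2 fold change of 3.10 ± 0.52 (SE, adjusted p = 0.00247). Mmp19 was at 21 and 22.6 CPM for MC010, 45.5 and 46 for MC011, 18.1 and 18.1 for MC654 and 18.2 and 18.1 for MC659. Here MC011 was the high line and MC010 lay just above the WT lines, and the log2 fold change of 0.90 ± 0.27 (SE, adjusted p = 0.0322) stayed under an adjusted p of 0.05 in 2 of the 8 fits that left out a library. Mmp19 shares exon sequence with Tmem198b on the opposite strand, and the counting's use of strand is not stated, so reads of the 2 genes may not be separated. Tmem198b itself had a log2 fold change of 0.38 (adjusted p = 0.117).

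Of the 12 tested ADAMTS genes, Adamts2, Adamts7 and Adamts9 were called between the labels, each higher under the label IRF8 KO, or 25.0% beside 22.5% of all genes tested. Adamts7, which cleaves cartilage oligomeric matrix protein (ENSMUSG00000032363, chromosome 9, 90163069 to 90208071), was at 89.2 and 84.6 CPM for MC010, 33.4 and 28.8 for MC011, 8.77 and 7.9 for MC654 and 6.04 and 6.24 for MC659. Its log2 fold change was 3.03 ± 0.42 (SE, adjusted p = 0.0010), and MC010 exceeded MC011 by 1.48. Tbc1d2b overlaps its exons on the opposite strand and had a log2 fold change of -0.53 (adjusted p = 0.331). Adamts12, its closest relative, was at 4.19 and 3.99 CPM for MC010, 11 and 11.4 for MC011, 14.6 and 15.5 for MC654 and 15.9 and 15.8 for MC659. All libraries labelled IRF8 KO were below the WT ones, mainly in MC010, and the log2 fold change was -1.02 ± 0.37 (SE, adjusted p = 0.061). DESeq2 (adjusted p = 0.0164) and limma-voom with lines as random blocks (0.0308) called it lower.

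Adamts2, the procollagen N-proteinase that trims the N-terminal propeptide of fibrillar procollagens (ENSMUSG00000036545, chromosome 11, 50602084 to 50807573), was at 6.83 and 5.88 CPM for MC010, 37.7 and 33.3 for MC011, 2.41 and 1.57 for MC654 and 2.59 and 2.96 for MC659. It rose most in MC011, and the log2 fold change between the labels was 3.13 ± 0.67 (SE, adjusted p = 0.00773); with a line left out the adjusted p reached 0.106. The other procollagen N-proteinases did not pass. Adamts14 was at 48.7 and 44.4 CPM for MC010, 44.5 and 39.6 for MC011, 63.8 and 55 for MC654 and 41.4 and 43.6 for MC659, a log2 fold change of -0.20 ± 0.14 (SE, adjusted p = 0.307). Adamts3, which also acts on proVEGF-C, was at 0.21 and 0.204 CPM for MC010, 0.913 and 1.15 for MC011, 0.108 and 0.388 for MC654 and 0.159 and 0.0556 for MC659, a log2 fold change of 1.80 ± 0.78 (SE, adjusted p = 0.107), with MC011 as the high line.

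Adamts9, an enzyme that cleaves versican and aggrecan (ENSMUSG00000030022, chromosome 6, 92772699 to 92943492), was the only called member of the proteoglycan-cleaving group. It was at 6.82 and 6.42 CPM for MC010, 9.25 and 7.81 for MC011, 1.59 and 1.82 for MC654 and 1.86 and 2.28 for MC659, a log2 fold change of 2.00 ± 0.18 (SE, adjusted p = 0.000141). Adamts1 was at 38.2 and 36.9 CPM for MC010, 58.7 and 57.4 for MC011, 34.3 and 35 for MC654 and 49.7 and 48.3 for MC659, and the labels overlapped (log2 fold change 0.19 ± 0.20, adjusted p = 0.497). Adamts4, the aggrecanase known as aggrecanase-1, was at 11.3 and 11.3 CPM for MC010, 6.35 and 4.71 for MC011, 13.6 and 13.1 for MC654 and 11.5 and 12.9 for MC659. It was lowest in MC011, with a log2 fold change between the labels of -0.60 ± 0.28 (SE, adjusted p = 0.132).

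Adamts5, known as aggrecanase-2, differed between the lines of each label. It was at 1.5 and 2.37 CPM for MC010, 14.2 and 13.7 for MC011, 5.13 and 6.2 for MC654 and 30.8 and 29.2 for MC659. The order of the lines was MC659, MC011, MC654 and MC010, so that each label had a high and a low line, and the log2 fold change between the labels was -1.16 ± 0.89 (SE, adjusted p = 0.344). Adamts6 was at 23.9 and 25.9 CPM for MC010, 4.84 and 5.48 for MC011, 39.5 and 42.1 for MC654 and 55 and 51.8 for MC659. It was lower in both lines labelled IRF8 KO, by far the most in MC011, and had a log2 fold change of -1.65 ± 0.56 (SE, adjusted p = 0.0506). It was called by DESeq2 (adjusted p = 0.00573), under upper-quartile scaling (0.0491) and in limma-voom with lines as random blocks (0.0239). Adamts10, which acts on fibrillin microfibrils, was at 37.3 and 34.3 CPM for MC010, 35.6 and 32.8 for MC011, 33.7 and 32.5 for MC654 and 32.6 and 31.7 for MC659, where the labels overlapped (log2 fold change 0.10 ± 0.06, adjusted p = 0.236).

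Both inhibitors in the table were called higher under the label IRF8 KO. Timp3 (ENSMUSG00000020044, chromosome 10, 86300372 to 86349506) was at 109 and 117 CPM for MC010, 225 and 225 for MC011, 1.28 and 2.09 for MC654 and 4.0 and 3.21 for MC659. The means were 169 ± 64.4 CPM under the label IRF8 KO and 2.65 ± 1.2 CPM under the label WT (SD, n = 4 libraries from 2 lines each), a log2 fold change of 5.99 ± 0.47 (SE, adjusted p = 7.31e-05). Timp3 overlaps Syn3 on the opposite strand, exon sequence included, and Syn3 had 68 counts in all 8 libraries against 61412 for Timp3. Timp2, which inhibits the MMPs and takes part with MMP14 in the activation of proMMP2 (ENSMUSG00000017466, chromosome 11, 118301069 to 118355740), was at 583 and 564 CPM for MC010, 1146 and 1140 for MC011, 429.8 and 421 for MC654 and 448 and 444 for MC659. MC011 was the high line and MC010 was above the WT lines by 0.40, and the log2 fold change between the labels was 0.98 ± 0.25 (SE, adjusted p = 0.0172). With a line left out, its adjusted p rose to as much as 0.146.

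The lines labelled IRF8 KO were set separately against the mean of the WT lines in a fit with one group per line. These comparisons share the WT libraries, so their values are given side by side. Against WT, MC010 had 11 of the 28 tested members higher and 5 lower, beside 37.1% of all genes tested (19.7% higher and 17.4% lower). MC011 had 15 higher and 4 lower, beside 30.7% (17.3% and 13.4%). The higher members of both lines include Mmp3 and Mmp1b, which had to differ between the labels. They also include Mmp10 and Mmp13, which needed the libraries labelled IRF8 KO to pass the filter. Mmp3 was at 10.41 in MC010 and 10.07 in MC011 on the log2 fold scale, Timp3 at 5.52 and 6.51, Mmp23 at -4.59 and -5.05, and Mmp2 at -1.15 and -1.5. Mmp10 was at 7.55 and 3.82, Adamts2 at 1.44 and 3.92, Adamts6 at -0.91 and -3.18, and Adamts12 at -1.91 and -0.46.

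**Figure D3:**
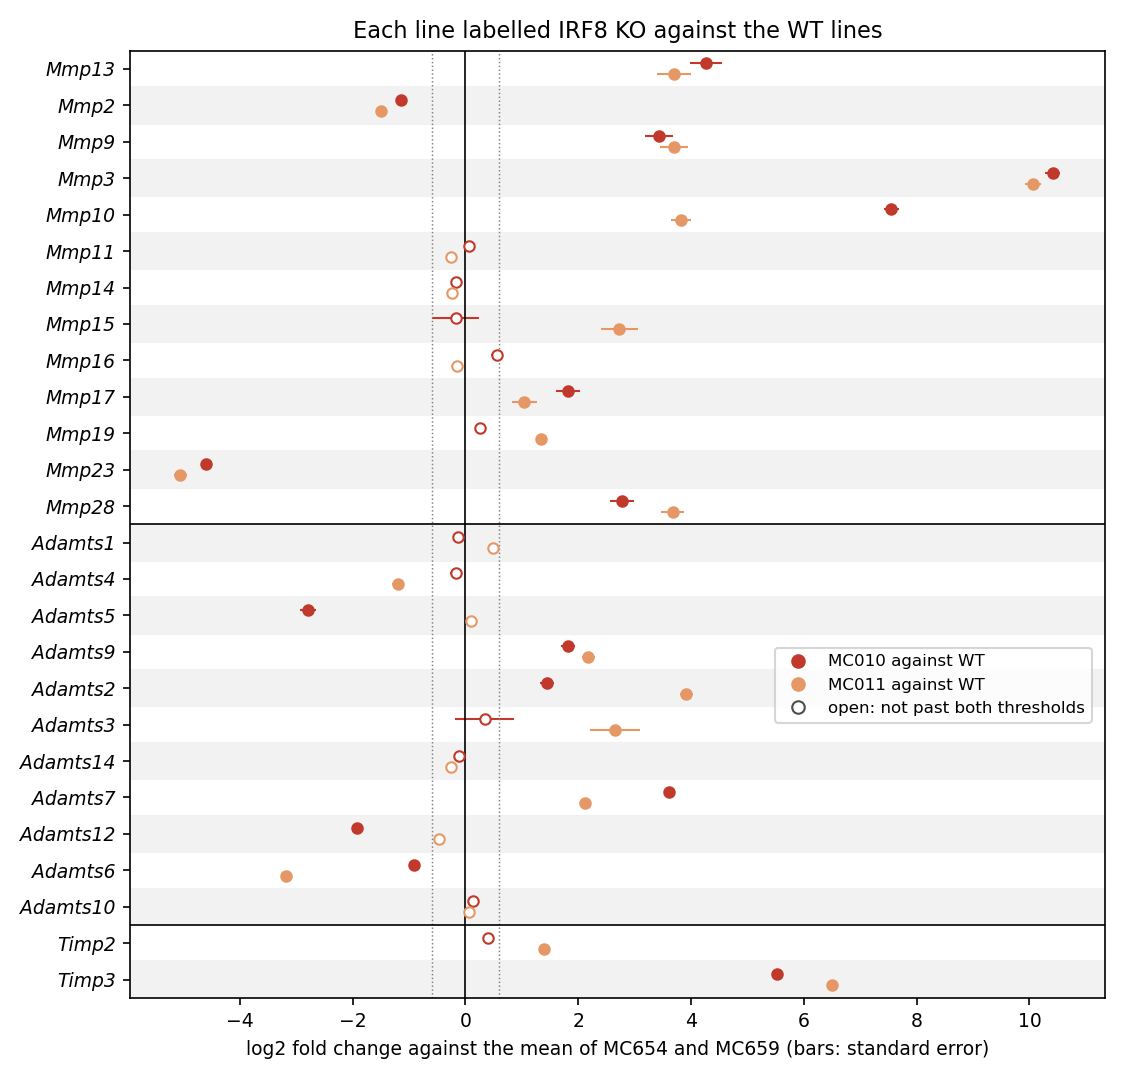
Log2 fold change of MC010 and of MC011 against the mean of the WT lines MC654 and MC659 for the 26 members with at least 1 CPM in some line; bars are standard errors, filled points passed both thresholds and dotted lines mark a log2 fold change of 0.59 in each direction. Both comparisons use the same WT libraries. Mmp3 lies farthest to the right in both, at 10.41 and 10.07, and Mmp23 farthest to the left, at -4.59 and -5.05.

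Lines of one label also differed. MC010 and MC011 differed in 18 of the 28 tested members, 7 higher and 11 lower in MC010, beside 31.6% of all genes tested (15.7% higher and 16% lower). Mmp10, Adamts6, Adamts7 and Mmp1b were higher in MC010, by 3.73, 2.27, 1.48 and 1.89 on the log2 scale. Mmp15 and Adamts5 were lower in MC010, both with a log2 difference of -2.90, and both inhibitors had a log2 difference of -0.99. The WT lines MC654 and MC659 differed in 4 members, 1 higher and 3 lower in MC654, beside 4.95% of all genes tested (1.24% and 3.71%). Adamts5 (-2.40, adjusted p = 1.14e-08), Mmp28 (-1.52, adjusted p = 0.00485) and Timp3 (-1.09, adjusted p = 0.000261) were lower in MC654. Adamts8 was higher in it (2.25, adjusted p = 0.0159). Without the first MC659 library 2 of these 4 remained called, beside 3.59% of all genes tested.

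Levels were set against each other after division of CPM by the length of each gene's joined exons in kb. On this scale Timp2 was the most abundant member in MC010 and MC011, with 36.5% and 56.2% of the summed level, and Mmp2 was the most abundant in MC654 and MC659, with 44.7% and 41.5%. The summed level of the 34 members was 397 to 409 CPM per kb in the libraries of MC010, 520 to 523 in MC011, 397 to 414 in MC654 and 410 to 412 in MC659. Within it the MMPs came to 163 to 203 CPM per kb in the libraries labelled IRF8 KO and 256 to 269 in those labelled WT. The ratio of the 2 TIMPs to the MMPs was 0.803 and 0.806 in MC010, 1.97 and 1.95 in MC011, 0.410 and 0.424 in MC654, and 0.447 and 0.438 in MC659. The libraries of the 2 labels did not overlap in this ratio, and Timp1 is not part of it. Mmp2 and Mmp14 together made up 63.1% to 67.3% of the MMP level in the libraries labelled IRF8 KO and 86.7% to 89.7% in those labelled WT, and the ratio of Mmp2 to Mmp14 was 1.33 to 1.64 and 3.04 to 3.40.

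**Figure D4:**
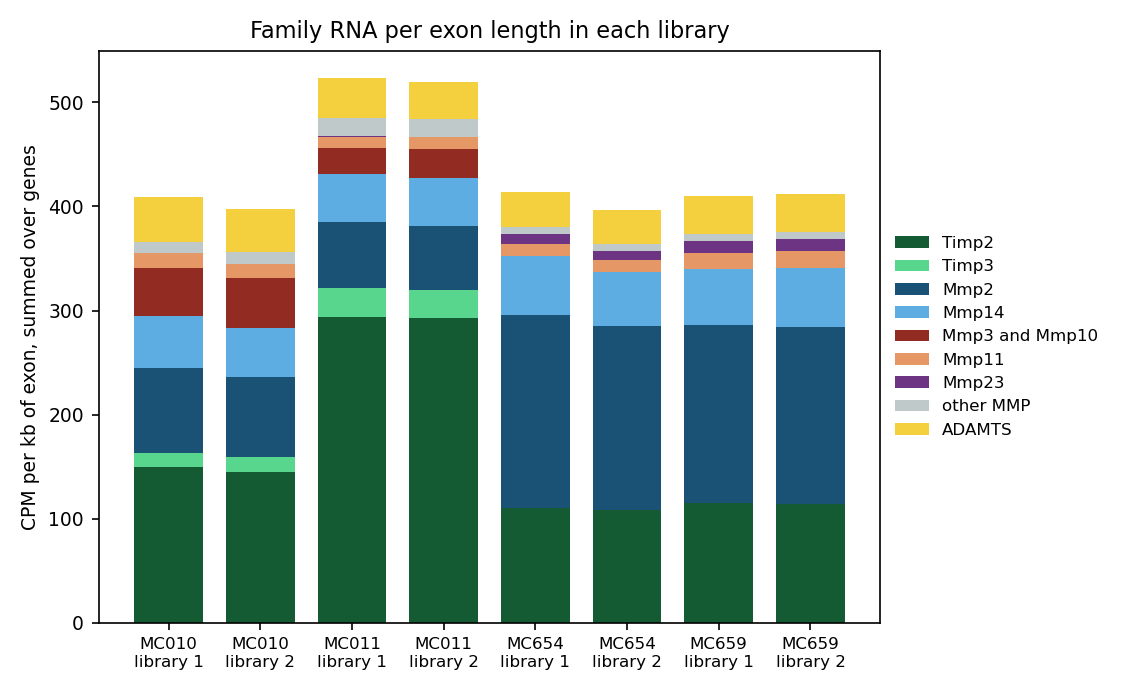
CPM per kb of exon summed over the 34 members in each library, stacked by gene or group from Timp2 at the base to the ADAMTS genes at the top. The green TIMP part is tallest in MC011, the dark blue Mmp2 part is taller in the WT libraries, and the red part, Mmp3 with Mmp10, is visible only in the lines labelled IRF8 KO.

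Genes that act with these proteases were examined in a list of 33 plasminogen activators and their inhibitors, cell surface regulators, ADAM and cathepsin proteases, ADAMTS-like proteins and procollagen C-proteinases. The table held 31 of these, 30 were tested, and 3 were called higher and 6 lower between the labels, or 30.0% beside 22.5% of all genes tested. The median log2 fold change was 0.02. Serpine2, a protease inhibitor that acts on thrombin and plasminogen activators, had 7.18 CPM for MC010, 82.7 CPM for MC011, 1.41 CPM for MC654 and 0.46 CPM for MC659 (log2 fold change 5.59 ± 1.08, adjusted p = 0.0049). Adamtsl4, an ADAMTS-like protein without protease activity, had 5.37 CPM for MC010, 54.2 CPM for MC011, 2.61 CPM for MC654 and 4.34 CPM for MC659 (log2 fold change 3.10 ± 0.85, adjusted p = 0.0226). Spock1, a matrix proteoglycan, had 0 counts in all 4 libraries labelled WT. It passed the filter only through libraries labelled IRF8 KO and so had to differ, and it is among the 3 called higher. Against a floor of 3 counts per library, MC010 was at least 28.5-fold higher and MC011 at least 4.49-fold higher than MC654.

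Of the lower partners, Serpinb2, a serine protease inhibitor that stays mostly inside cells, had 1.72 CPM for MC010, 1.08 CPM for MC011, 27.7 CPM for MC654 and 14.2 CPM for MC659 (log2 fold change -3.90 ± 0.45, adjusted p = 0.000425). The plasminogen activators did not pass, with log2 fold changes of 0.34 ± 0.28 (SE, adjusted p = 0.369) for Plau and 0.35 ± 0.27 (SE, adjusted p = 0.347) for Plat. Reck, a membrane-anchored inhibitor of MMPs, had 4.21 CPM for MC010, 7.02 CPM for MC011, 10.3 CPM for MC654 and 11.2 CPM for MC659 (log2 fold change -0.94 ± 0.21, adjusted p = 0.00976). Lrp1, an endocytic receptor that clears MMPs, ADAMTS proteases and TIMPs, had 575 CPM for MC010, 695 CPM for MC011, 1584 CPM for MC654 and 1346 CPM for MC659 (log2 fold change -1.21 ± 0.11, adjusted p = 0.000144). Adam12 (-2.10 ± 0.12, adjusted p = 1.57e-05) and Thsd4, also known as Adamtsl6 (-0.89 ± 0.27, adjusted p = 0.0336), were also lower, with log2 fold changes in that order. Furin, a proprotein convertase that activates membrane-type MMPs and ADAMTS proteases, passed the adjusted p but not the fold threshold (-0.50 ± 0.08, adjusted p = 0.00171).

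Of 12 transcription factor genes of the AP-1 and ETS families and Runx2, which are known to act on MMP promoters, all were tested, and 3 were called higher and 1 lower, or 33.3% beside 22.5% of all genes tested. Jun had 190.2 CPM for MC010, 225 CPM for MC011, 129.8 CPM for MC654 and 82.1 CPM for MC659 (log2 fold change 0.97 ± 0.19, adjusted p = 0.00533). Fosl1, which codes for the AP-1 subunit FRA1, had 197 CPM for MC010, 218 CPM for MC011, 130.3 CPM for MC654 and 98.2 CPM for MC659 (log2 fold change 0.86 ± 0.12, adjusted p = 0.00119). Etv5 had a log2 fold change of 0.71 ± 0.19 (SE, adjusted p = 0.0197) and Ets2 of -0.77 ± 0.10 (SE, adjusted p = 0.000806). Fos was at 0.37 and Junb at -0.54, neither past the fold threshold, so Jun and Fosl1 alone were called among the AP-1 genes.

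**Figure D5:**
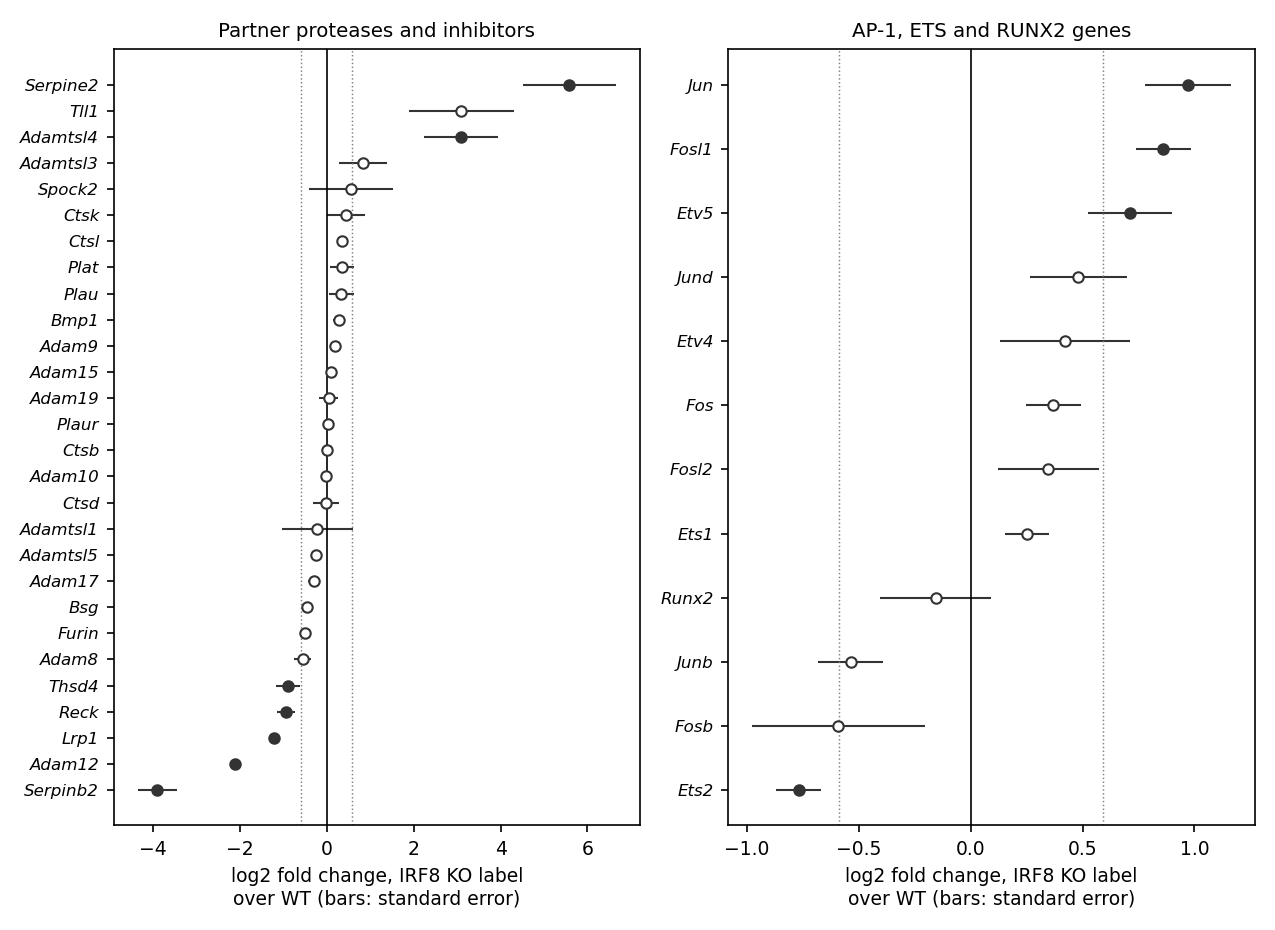
Log2 fold change between the labels of tested partner genes (left, without Spock1, which had 0 counts in all WT libraries) and of the 12 AP-1, ETS and RUNX2 genes (right); bars are standard errors, filled points passed both thresholds and dotted lines mark a log2 fold change of 0.59 in each direction. Serpine2 is highest at 5.59 and Serpinb2 lowest at -3.90 on the left, and the values on the right lie between -0.77 and 0.97.

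The members under 1 CPM in every line were Mmp1b and Adamts8 among the tested ones and the 6 that were not tested. Adamts8 did not differ past the test between the labels, with a log2 fold change of -0.31 ± 0.78 (SE, adjusted p = 0.784). For Adamts15, Adamts16, Adamts17, Adamts20, Mmp24 and Mmp25, a difference between the labels was not tested at counts of at most 29 per library. With each of the 4 lines left out in turn, 9 called members stayed at an adjusted p under 0.05. They were Mmp2, Mmp3, Mmp9, Mmp13, Mmp23, Mmp28, Adamts7, Adamts9 and Timp3, and Mmp3 among them had to differ between the labels. Mmp13 among them needed the libraries labelled IRF8 KO to pass the low-count filter. With lines as random blocks, Mmp13 was not called (adjusted p = 0.0525) and the other 8 were.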

How the data were processed

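RNA was sequenced from the 4 lines, 2 libraries per line, by stranded mRNA sequencing. The processing notes of the submitters name STAR 2.7.3a, HTSeq 0.11.2, DESeq2 and the genome builds mm10 and GRCm38.p6. The authors deposited a raw count per gene and library, a signal (the count scaled by DESeq2 to one size factor per library), and their own comparison, with a mean signal, a log2 fold change and its error, a score (the test statistic) and p-values before and after adjustment. The deposited raw counts were used here, and the authors' comparison was not. No row had fewer than 20 counts over the 8 libraries, and whether counting used strand is not given in the sources used here. X- and Y-linked genes were not analysed here. Some items are not reported here on their own and enter only counts and sums over lists.

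Tests used edgeR 4.0.16 under R 4.3.3 (filterByExpr by genotype, TMM scaling, quasi-likelihood test with robust estimation) on all 15153 genes that passed, with Benjamini-Hochberg adjustment over them. One fit had the genotype label alone and a second had one group per line. Standard errors came from the log2 fold change and the F statistic. CPM values use TMM-scaled library sizes. Genes with a mean of at least 1 CPM in some line were described in each library, the rest by their counts. The scripts were tested on simulated counts. Intervals and floors cover counting error only. Coordinates are those of the deposited table, and 32 of the 34 equal GENCODE vM21. Promoter windows are from RefSeq (GRCm38.p6). The members, gene lists, motifs and tests were chosen with earlier results of these data known.

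Alternatives were DESeq2 1.42.0, upper-quartile scaling, no filter, no fold threshold, the library number as a block, limma-voom (limma 3.58.1) with lines as random blocks, counts summed per line, and each library or line left out.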

Additional observations from a re-analysis of the deposited data

Results flagged for a closer look

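In 18 of the 28 tested members MC010 and MC011, both labelled IRF8 KO, differed past both thresholds (edgeR's quasi-likelihood test on the difference itself), beside 31.6% of all genes tested, so that the step from WT is not the same in MC010 and MC011. The values are log2 differences, MC010 minus MC011. Among the MMPs, Mmp10 stood at 3.73, Mmp1b at 1.89, Mmp17 at 0.78, Mmp16 at 0.71, Mmp28 at -0.90, Mmp19 at -1.07 and Mmp15 at -2.90. Among the ADAMTS genes, Adamts6 stood at 2.27, Adamts7 at 1.48, Adamts4 at 1.02, Adamts1 at -0.63, Adamts12 at -1.45, Adamts8 at -2.12, Adamts3 at -2.31, Adamts2 at -2.48 and Adamts5 at -2.90. Both inhibitors, Timp2 and Timp3, stood at -0.99. For Adamts1, Adamts5, Adamts8, Mmp15 and Mmp16 the 2 lines lay on opposite sides of the WT mean, and no member was called in opposite directions against it.

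Mmp1a, which is no member because the table gives it as a polymorphic pseudogene, had up to 42 counts in a library of MC010 and 0 in all 4 libraries labelled WT. No library stood apart from the other 3 of its label in any of the 56 groups of 4 examined.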

How the results depend on the processing

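Between the labels, edgeR called 15 of 28 tested members, beside 22.5% of all genes tested, and DESeq2 19 of 34, beside 24%. With lines as random blocks, limma-voom called 11 of 28 (7 higher and 4 lower, 9 of them shared), beside 12.4%. Without the line MC654, 10 of 30 were called, beside 12.7%, and without MC659, 9 of 29, beside 11.6%. With counts summed per line, 0 members and 0 of all genes were called. At an unadjusted p under 0.05 were 12 members and 3361 of all genes. The fit then has 2 lines against 2. Leaving out each library gave 14 to 17 between the labels, 16 to 18 between MC010 and MC011, 15 to 18 for MC010 and 18 to 20 for MC011 against WT, and 2 to 5 between MC654 and MC659, where 4 were called, with 2 when the first MC659 library was left out and 11 without the fold threshold. Same-numbered libraries correlated between -0.027 and 0.055 across lines in their deviations from the line means, so the numbers do not pair them. With library numbers as a replicate block, 14 members were called between the labels, beside 20.5% of all genes tested, since Mmp19 had an adjusted p of 0.0541. The comparison of MC010 with MC011 then gave 18, beside 31.6%, and that of MC654 with MC659 gave 4, beside 5.08%. Against WT, MC010 had 16, beside 36.9%, and MC011 had 19, beside 30.6%.

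No called member changed sign under the alternatives run. The uncalled members that did had log2 fold changes between the labels of -0.16 (Adamts1), 0.031 (Mmp11) and -0.16 (Mmp15) without MC011; -0.038 (Adamts1), 0.056 (Adamts14), 1.21 (Adamts8) and -0.0076 (Mmp16) without MC654; 0.48 (Adamts5) and 0.15 (Mmp11) without MC659; 0.38 (Adamts8) and -0.19 (Mmp16) without MC010; and -0.72 to 0.21 for Adamts8 over the libraries left out in turn, 0.21 without the second MC654 library. The cause was not tested. Of the values of single members under the alternatives, 431 kept their direction and side of the threshold, 42 lost the call, 17 gained it and 12 changed sign. Depth limits what can be said of members near 3 counts per library.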
